A study of Homo sapiens with 6 samples.

Results

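On this array some probe sets are assigned by the platform annotation to more than 1 gene. The listed genes can be gene copies, pseudogenes, readthrough transcripts or neighbours, and some have no such relation. Why a probe set lists several genes was not examined, and its probe sequences were not compared. The probe sets described here list more than 1 gene symbol, none of them an HLA or histone gene, and differ by at least 2-fold (1 on the log2 scale) between the mean of the IDTC colony arrays and the mean of the parent arrays. Of 33297 probe sets in the table, 1754 listed several symbols, 1705 of these were left after the HLA and histone names were taken out, and 69 met the rule. In the colonies 32 of them were higher and 37 lower. The 69 were chosen by this same difference between colonies and parent cells, so their differences are given as a description, with no test.

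All samples came from WM164, a BRAF-mutant melanoma cell line. The treated samples, titled IDTC colony, were kept for 60 days in 500 nM PLX4032, an inhibitor of mutant BRAF also called vemurafenib, and their labels describe them as resistant. The parent samples are labelled as controls and, by the series title, were exposed to DMSO, the solvent of the drug. Each group had 3 samples of this 1 cell line, each read on a separate whole-transcript array made by Affymetrix, and the time that the parent cells spent in DMSO is not given in the sources used here.

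Several of the gene families in this set have a known biology in melanoma or in gene control. Cancer-testis antigens such as CT45A, GAGE and SAGE1 are normally made in germ cells, are silent in most adult tissues where their promoters carry DNA methylation, and are switched on in some tumours, melanoma among them. Thymosin beta-4, the product of TMSB4X, binds actin monomers and so holds back filament assembly. SNURF and SNRPN lie in an imprinted region that is read from the paternal chromosome, and the long transcript that starts there is the host of the SNORD116 and SNORD115 small nucleolar RNAs, and loss of the SNORD116 cluster is tied to Prader-Willi syndrome. Readthrough symbols, written with both gene names joined by a hyphen, stand for transcripts that run from one gene into its neighbour.

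A value here is a deposited log2 expression value, so that a difference of 1 is a 2-fold change. The median of an array lay between 6.25 and 6.34, arrays of a group correlated at 0.995 to 0.997 over all probe sets, and arrays of different groups at 0.978 to 0.98. Of the 7 melanocyte markers, 6 were measured by a probe set of their own and 5 of these exceeded every array median in both groups, TYRP1 being the low one at 4.45 in colonies and 4.69 in parent cells. The 3 endothelial markers averaged at most 5.59 in either group. Of the 3 keratinocyte markers, KRT14 and KRT10 exceeded every array median in both groups, at 7.02 and 6.49 in colonies and 7.15 and 6.54 in parent cells. Of the 4 fibroblast markers, COL1A1, at 7.58 in colonies and 7.38 in parent cells, and LUM, at 7.76 and 8.11, did so too, whereas DCN averaged 3.69 and 3.60. Among the 3 leukocyte markers, CD3E averaged 4.92 in colonies and 4.91 in parent cells, PTPRC 3.71 and 3.67, and LYZ 5.41 and 7.76. The part of other cells in the results was not tested.

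A difference of at least 2-fold was found in 4.05% of the 1705 eligible probe sets, 1.88% higher and 2.17% lower in colonies. The share was 5.28% of the 19460 probe sets with 1 symbol, 1.46% of the 12083 with none and 3.83% of all. Colony and parent values did not overlap in any of the 69, which a rule of at least 2-fold nearly ensures where the SDs are small. The median SD over the 3 arrays of a group was 0.0917 in colonies and 0.106 in parent cells, against 0.0714 and 0.0873 over all probe sets. In 15 of the 69, the lower group lay below the lowest array median of 6.25, where a signal above background cannot be told from the sources used here.

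The 69 probe sets do not stand for 69 separate measurements. In 22 of them all 6 values were the same as in another of the set, which leaves 55 distinct sets of values, 22 higher and 33 lower. Joined by the symbols they share, they form 33 families, of which 23 have 1 probe set and 10 have 2 or more. Within the 69, the probe sets of a family differed in the same direction, with 16 families higher and 17 lower in colonies. This could not be otherwise in families of 1 probe set. The same holds for CKMT1A with CKMT1B and SNORA59A with SNORA59B, which have 1 set of values each. Probe sets under 2-fold are not counted here, and some that share a readthrough symbol with a family went the other way. By the names and the gene order, 13 list copies of a gene with no shared locus found, and 14 list genes of 1 locus. Another 18 list copies that also share a locus, and in 24 no shared name stem or locus was found. Among the 13 are 7981982 and 7981986, whose SNORD116 copies do lie in 1 cluster. They also list SNRPN, which is more than 10 genes away. The 24 hold the 14 probe sets with PCMTD2 and LINC00266-1, where LINC00266-1 was not placed in the gene order and a shared locus could not be judged. Also among the 24 is 7981955, whose SNORD116-4 and SNRPN lie in the same imprinted region but more than 10 genes apart. Likewise 8156164 lists LOC389765 and KIF27, which lie on chromosome 9 but more than 10 genes apart. Its flanks are KIF27 itself and NAA35.

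**Figure D1:**
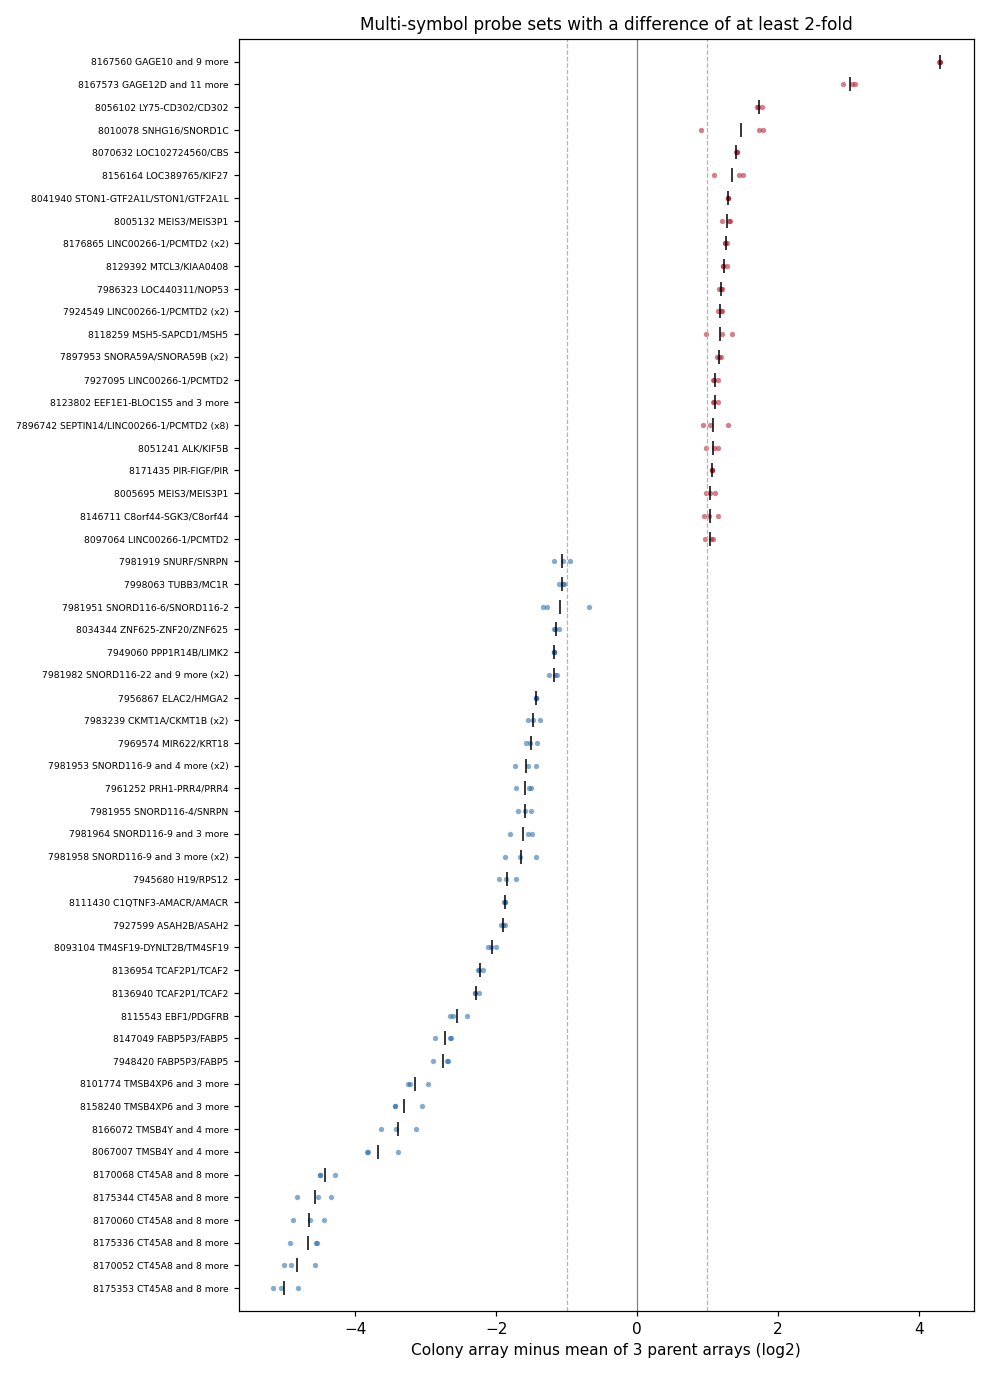
Differences of the 69 probe sets, drawn as 55 rows because probe sets with the same 6 values share a row (x2 or x8 gives their number). Dots are the 3 colony arrays minus the parent mean, the black tick is the mean difference (log2), and dashed lines mark 2-fold. The CT45A rows lie at the far left, between -5.02 and -4.43, and the GAGE rows at the far right, at 3.02 and 4.30.

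The 6 probe sets for CT45A, a family of cancer-testis antigens on the X chromosome, had the lowest differences of the set. Each lists the same 9 symbols, CT45A1, CT45A2, CT45A3, CT45A5, CT45A6, CT45A7, CT45A8, CT45A9 and CT45A10, and the genes lie next to each other, so a value cannot be given to one copy. Probe set 8175353 read 4.93, 4.69 and 4.58 in colonies, against 9.81, 9.68 and 9.77 in parent cells. Every colony array lay below the lowest array median of 6.25 and every parent array above the highest, 6.34. The difference was -5.02, or 32.4-fold lower in colonies. The other 5 probe sets, 8170052, 8175336, 8170060, 8175344 and 8170068, differed by -4.83, -4.68, -4.66, -4.57 and -4.43. Over all 6, colony values ran from 4.23 to 5.28 and parent values from 9.08 to 9.81, a gap of 21.6-fold to 32.4-fold between group means. These 6 are all the multi-symbol probe sets for CT45A in the table.

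The promoters of both outer copies of the cluster are shown, since each CT45A probe set lists the same 9 symbols. The gene starts are where family members can be compared. They come from RefSeq (GRCh38.p14) and run from 250 bases before the gene start to 50 after it. CT45A1 lies at chrX:135713389-135713688 on the plus strand and CT45A10 at chrX:135888847-135889146 on the minus strand, each printed 5′ to 3′ along its gene. Capitals mark each CG, the base pair step at which DNA methylation is placed.
CT45A1: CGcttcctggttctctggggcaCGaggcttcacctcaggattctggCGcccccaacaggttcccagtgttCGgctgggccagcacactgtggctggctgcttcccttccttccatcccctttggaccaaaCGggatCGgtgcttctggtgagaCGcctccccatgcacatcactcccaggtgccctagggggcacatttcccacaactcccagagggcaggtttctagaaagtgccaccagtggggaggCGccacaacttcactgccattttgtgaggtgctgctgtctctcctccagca
CT45A10: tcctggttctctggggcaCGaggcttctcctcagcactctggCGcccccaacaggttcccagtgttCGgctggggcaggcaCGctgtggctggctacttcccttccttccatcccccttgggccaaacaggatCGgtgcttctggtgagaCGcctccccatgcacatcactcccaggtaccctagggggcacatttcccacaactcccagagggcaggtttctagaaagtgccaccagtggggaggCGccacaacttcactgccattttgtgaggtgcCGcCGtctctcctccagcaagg
CT45A1 holds 8 CG and CT45A10 holds 9, and an alignment of both gave 93.4% identity. That is the highest of any pair among the 4 CT45A promoters in the table, which belong to 3 of the 9 listed symbols and whose pairs had a median identity of 73.1% and a lowest of 53.9%. As many or more CG are found in 60.7% and 58.4% of the 35116 promoters in the table, whose median is 14. Methylation was not measured in these samples.

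Around the CT45A cluster, probe sets with 1 symbol could be tested by limma, with Benjamini-Hochberg adjustment over all 33297 probe sets and a threshold of 0.05. That test called 29.7% of all probe sets, 14.4% higher and 15.3% lower, and 39.2% of those with 1 symbol, 18.8% higher and 20.4% lower. Of the 5 within 10 genes of the cluster, 3 fell, 1 rose and 1 did not pass. SAGE1, another cancer-testis antigen, read 4.35, 3.94 and 4.02 in colonies, against 7.33, 7.24 and 7.24 in parent cells. It fell by 3.17 (SE 0.11, limma adjusted p = 1.1e-05), with no overlap between the groups. MMGT1, a subunit of a complex that inserts proteins into the membrane of the endoplasmic reticulum, fell by 0.48, and MAP7D3, a microtubule-binding protein, fell by 0.56. INTS6L, a relative of an Integrator subunit, rose by 0.37 (limma adjusted p = 0.0081), and SMIM10L2A differed by 0.02 and did not pass. CT55, a further cancer-testis antigen and the nearest single-symbol probe set by ID to 3 of the 6, differed by -0.46 at 8175311 (limma adjusted p = 0.04), a call that was lost with the replicate number as a block, without colony array 1 or 3, or without any 1 of the parent arrays. At a distant ID, 8180401, CT55 fell by 0.67 (limma adjusted p = 0.00017).

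The GAGE family, cancer-testis antigens first described in melanoma and also on the X chromosome, was the counterpart with the highest differences. Probe set 8167560 lists GAGE10, GAGE2A, GAGE13, GAGE12C, GAGE12D, GAGE12E, GAGE12F, GAGE12G, GAGE12H and GAGE12J. It read 10.85, 10.84 and 10.86 in colonies, against 6.32, 6.61 and 6.73 in parent cells. The colony SD was 0.0079, the parent SD was 0.21, and the difference was 4.30, or 19.6-fold higher in colonies. Probe set 8167573 lists GAGE1, GAGE2A, GAGE4, GAGE13, GAGE12B, GAGE12C, GAGE12D, GAGE12E, GAGE12F, GAGE12G, GAGE12H and GAGE12J. It read 11.19, 11.32 and 11.36 in colonies, against 7.99, 8.45 and 8.36 in parent cells, a difference of 3.02 or 8.13-fold. The probe sets share 9 of their symbols. The parent means of both, 6.55 and 8.27, were above the highest array median, and the colony means, 10.8 and 11.3, were higher still. No probe set in the table lists a GAGE gene alone.

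GAGE10 is listed by 8167560 and not by 8167573, so its promoter is shown beside that of GAGE12J, which both list. GAGE10 lies at chrX:49303396-49303695 and GAGE12J at chrX:49321787-49322086, both on the plus strand of GRCh38.p14, with each CG in capitals.
GAGE10: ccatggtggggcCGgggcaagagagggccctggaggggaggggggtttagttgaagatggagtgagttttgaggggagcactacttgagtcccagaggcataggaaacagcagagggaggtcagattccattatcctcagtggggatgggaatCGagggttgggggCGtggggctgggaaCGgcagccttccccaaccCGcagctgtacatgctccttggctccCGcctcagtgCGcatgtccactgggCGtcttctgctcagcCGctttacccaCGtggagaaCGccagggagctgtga
GAGE12J: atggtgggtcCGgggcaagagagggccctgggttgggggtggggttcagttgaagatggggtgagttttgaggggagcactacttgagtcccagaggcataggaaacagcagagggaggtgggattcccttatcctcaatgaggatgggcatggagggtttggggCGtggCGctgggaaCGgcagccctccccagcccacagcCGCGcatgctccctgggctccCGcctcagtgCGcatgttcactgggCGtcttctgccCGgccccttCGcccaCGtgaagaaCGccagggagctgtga
They hold 11 and 13 CG, and 54.7% and 51.7% of promoters hold at least as many. Their identity was 88.7%, below the median of 98.0% over the 13 GAGE promoters in the table, which belong to 12 of the listed symbols.

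Of the 11 probe sets with 1 symbol within 10 genes of the GAGE cluster, 1 rose, 1 fell and 9 did not pass limma's test. CLCN5, a chloride and proton exchanger of endosomes, rose by 0.69 (limma adjusted p = 0.00019), and SYP, the synaptic vesicle protein synaptophysin, fell by 0.42 (limma adjusted p = 0.0086). PAGE1 and PAGE4, of a related antigen family, differed by -0.04 and 0.03 and did not pass. Other cancer-testis families with several symbols stayed under 2-fold. The 7 MAGEA probe sets lay between -0.44 and -0.17, the 4 SSX between -0.48 and -0.37, the 4 SPANX between -0.01 and 0.08, and the 20 PRAMEF between 0.05 and 0.31. The 5 XAGE probe sets carried 1 set of values with a difference of -0.06, and the 11 CT47A lay between 0.10 and 0.13.

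**Figure D2:**
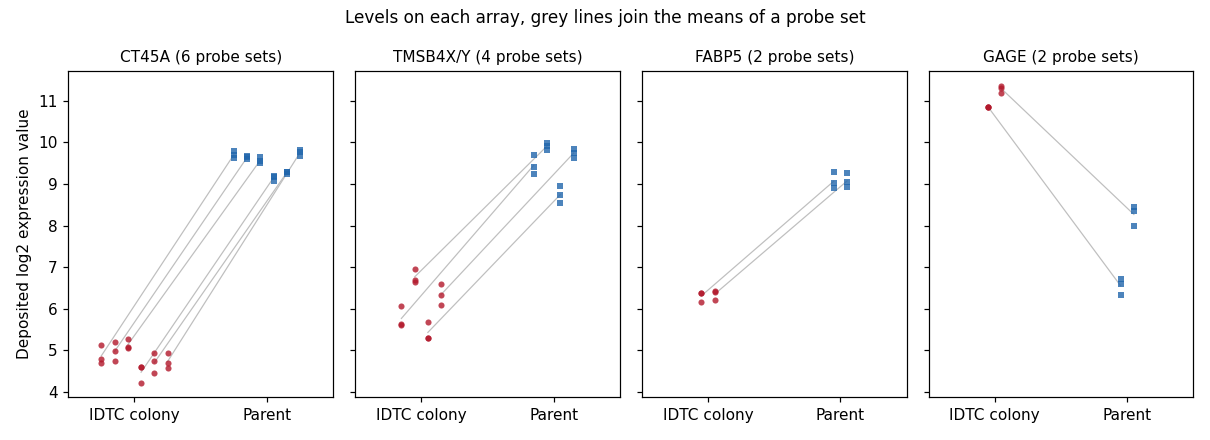
Deposited log2 value on each array for the probe sets of 4 families, IDTC colony at left and parent at right, with a grey line from mean to mean for each probe set. Colony points lie below parent points in CT45A, TMSB4X/Y and FABP5 and above them in GAGE, with no overlap in any probe set.

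Thymosin beta-4 had 4 probe sets, all lower in colonies. Probe set 8166072 lists TMSB4X with its Y-linked copy TMSB4Y and the pseudogenes TMSB4XP1, TMSB4XP2 and TMSB4XP6. It lies between probe sets on the X chromosome with TMSB4X among the genes there, and read 6.60, 6.10 and 6.32 in colonies, against 9.85, 9.75 and 9.63 in parent cells. All 3 colony arrays were at least 3 units below every parent array, and the difference was -3.40, or 10.5-fold. The same 5 symbols are listed by 8067007, which lies on chromosome 20 with TMSB4XP6 between its flanking probe sets. It read 6.06, 5.64 and 5.61 in colonies, against 9.70, 9.41 and 9.25 in parent cells, a difference of -3.68. Probe sets 8158240 and 8101774 list the same symbols without TMSB4Y, have flanks on chromosomes 9 and 4, and differed by -3.31 and -3.15. Thus probe sets at 4 genomic places, with symbols in common, read 8.86-fold to 12.8-fold lower in colonies.

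No probe set lists TMSB4X alone. Probe sets for other single thymosin genes and pseudogenes differed far less. TMSB4XP2 averaged 7.15 in colonies and 7.56 in parent cells and fell by 0.41 (limma adjusted p = 0.02), a call lost without parent array 1 or 3. TMSB4Y averaged 4.59 in colonies and 4.75 in parent cells and, at -0.17, did not pass (limma adjusted p = 0.13). TMSB10, which encodes a second actin-binding thymosin, fell by 0.32 (limma adjusted p = 0.0026), and TMSB15A differed by -0.11 without passing. Limma called none of the 7 single-symbol probe sets within 10 genes of TMSB4X, also with the trend and robust settings, and 1 was lower at an unadjusted p under 0.05. Among them were TLR7 and TLR8, receptors for single-stranded RNA, at -0.09 and -0.01, and PRPS2, which makes the precursor of nucleotide synthesis, at 0.05.

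The promoters of the X-linked and the Y-linked gene are shown because the 4 probe sets differ in whether they list TMSB4Y. TMSB4X lies at chrX:12974860-12975159 and TMSB4Y at chrY:13703649-13703948, both on the plus strand of GRCh38.p14, with each CG in capitals.
TMSB4X: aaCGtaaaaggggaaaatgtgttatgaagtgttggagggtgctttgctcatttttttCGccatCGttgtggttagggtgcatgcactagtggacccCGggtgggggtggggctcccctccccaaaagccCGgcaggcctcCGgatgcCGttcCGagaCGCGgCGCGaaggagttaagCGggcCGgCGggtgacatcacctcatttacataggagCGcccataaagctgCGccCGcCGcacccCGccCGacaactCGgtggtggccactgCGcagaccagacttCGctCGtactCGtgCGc
TMSB4Y: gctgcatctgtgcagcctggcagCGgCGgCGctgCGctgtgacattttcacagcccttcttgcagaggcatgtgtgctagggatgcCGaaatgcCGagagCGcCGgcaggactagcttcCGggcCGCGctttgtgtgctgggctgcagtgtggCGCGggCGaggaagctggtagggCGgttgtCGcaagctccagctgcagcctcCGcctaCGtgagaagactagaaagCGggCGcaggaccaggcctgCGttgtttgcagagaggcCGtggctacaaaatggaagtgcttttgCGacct
TMSB4X holds 27 CG and TMSB4Y holds 23, counts reached by 28.2% and 35.8% of promoters. Their identity was 46.8%. A probe set that lists both genes cannot tell their transcripts apart.

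FABP5, a carrier of fatty acids in the cytoplasm, is listed with its pseudogene FABP5P3 by 2 probe sets. Probe set 8147049, with FABP5 between its flanks on chromosome 8, read 6.43, 6.21 and 6.41 in colonies, against 9.27, 9.04 and 8.92 in parent cells. Probe set 7948420, with flanks on chromosome 11, read 6.39, 6.17 and 6.37 in colonies, against 9.28, 9.02 and 8.91 in parent cells. The differences were -2.72 and -2.76, or 6.60-fold and 6.76-fold lower in colonies, and the values of both were close on every array. PMP2, a fatty acid carrier of myelin in the same gene cluster, fell by 1.07 (limma adjusted p = 5.2e-05), whereas FABP4 and FABP12, also in the cluster, differed by 0.08 and -0.08 and did not pass. PAG1, a membrane adaptor that recruits the kinase CSK, lies nearby and rose by 1.41 (limma adjusted p = 8.2e-06). Of 6 single-symbol FABP probe sets, FABP7, the brain type, was the only one called, and it fell by 0.57.

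On chromosome 15, 10 probe sets of the imprinted SNURF, SNRPN and SNORD116 region were lower in colonies. Probe set 7981919, which lists SNURF and SNRPN at the start of the host transcript, read 7.65, 7.78 and 7.88 in colonies, against 8.86, 8.82 and 8.82 in parent cells, a difference of -1.06. The other 9 lie in the SNORD116 cluster, a row of C/D box small nucleolar RNAs, and are all of the multi-symbol SNORD116 probe sets in the table, with 6 distinct sets of values. Probe sets 7981958 and 7981962 list SNORD116-3, SNORD116-5, SNORD116-7 and SNORD116-9 and shared the values 7.29, 7.52 and 7.09 in colonies, against 9.10, 8.90 and 8.86 in parent cells. They differed by -1.65, or 3.15-fold. Probe set 7981964 lists SNORD116-3, SNORD116-6, SNORD116-8 and SNORD116-9 and differed by -1.62, and 7981953 and 7981966, with SNORD116-3, SNORD116-5, SNORD116-7, SNORD116-8 and SNORD116-9, shared a difference of -1.57.

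Probe set 7981955 lists SNORD116-4 and SNRPN and differed by -1.60, with a parent SD of 0.34 that was the largest of the set. Probe sets 7981982 and 7981986 list SNRPN and SNORD116-14 to SNORD116-22 and shared the values 10.31, 10.33 and 10.22 in colonies, against 11.51, 11.44 and 11.44 in parent cells, a difference of -1.18. Probe set 7981951, with SNORD116-2 and SNORD116-6, read 5.27, 5.87 and 5.21 in colonies, against 6.57, 6.50 and 6.60 in parent cells. Its middle colony array stood apart from the other two, the difference of -1.10 moved under 2-fold without colony array 3, and its colony mean was below every array median.

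Single-symbol probe sets of the cluster went the same way. Of 20 that list 1 SNORD116 copy, 18 fell and none rose (limma, adjusted p under 0.05), and at an unadjusted p under 0.05 the counts were 19 and 0. This stands beside the 20.4% of single-symbol probe sets that fell in the same fit. The median difference was -1.26, with a range of -1.91 to -0.04. SNORD116-15 averaged 10.8 in colonies and 11.9 in parent cells and fell by 1.18 (limma adjusted p = 2.7e-05). SNORD116-6 averaged 5.40 in colonies and 7.31 in parent cells and fell by 1.91 (limma adjusted p = 0.0011). SNORD116-10 averaged 3.09 in colonies and 3.13 in parent cells, SNORD116-16 averaged 2.47 in colonies and 2.90 in parent cells, and neither passed. Both were far below the array medians. These copies share sequence with each other and with the copies listed above, and are measured on the same arrays, so the counts are not independent of the 9. With any 1 array left out, 16 to 18 still fell. SNORD116-14, SNORD116-18, SNORD116-20, SNORD116-21 and SNORD116-22, the other copies that a multi-symbol probe set lists too, passed at differences of -1.46, -0.47, -1.30, -1.75 and -1.82.

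Beyond the cluster the differences were mixed. SNORD115, the next cluster of the same host transcript and known mainly from brain, had 20 single-symbol probe sets, with differences of -0.18 to 0.18, and limma called none of them, with 1 lower at an unadjusted p under 0.05 and 1 called without colony array 3. Its 8 multi-symbol probe sets lay between -0.16 and 0.01. SNORD115-2, for example, averaged 2.51 in both groups, far below the array medians, where a lower level in colonies may not be detectable. SNORD109A and SNORD109B, C/D box RNAs of the same region, share probe sets 7981947 and 7982098, which at -0.995 were just under 2-fold. PWAR6, a noncoding RNA of the region, averaged 2.955 in colonies and 3.215 in parent cells, also far below the array medians. It differed by -0.26 (limma adjusted p = 0.025), a call lost with the replicate number as a block and in 5 of the 6 fits that left out 1 array. NPAP1, an imprinted gene upstream, differed by -0.08 and did not pass.

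**Figure D3:**
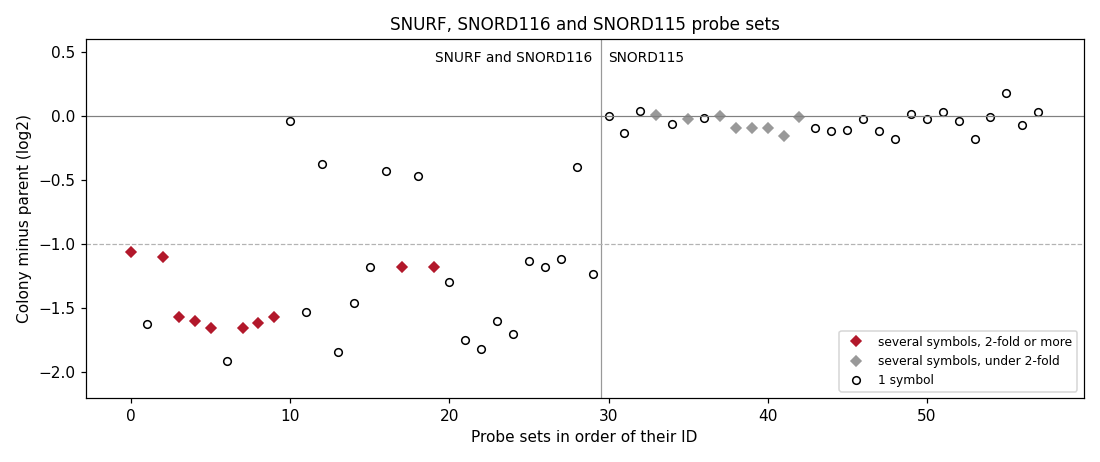
Colony minus parent difference (log2) of probe sets for SNURF with SNRPN, SNORD116 and SNORD115, in the order of their IDs. Filled diamonds list several symbols (red, at least 2-fold, and grey, under 2-fold), and open circles list 1. Red diamonds lie between -1.65 and -1.06, 18 of 20 open circles at left fell, and the points at right stay between -0.18 and 0.18.

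The largest family by number was the one that lists PCMTD2, a protein related to a methyltransferase that repairs aged proteins, with the noncoding LINC00266-1 and in 8 cases SEPTIN14, a septin cytoskeleton gene. All 14 of its probe sets were higher in colonies, by 1.03 to 1.26, but they hold only 5 distinct sets of values. The 8 with SEPTIN14, namely 7896742, 7911347, 7945342, 8031990, 8085054, 8110670, 8137666 and 8148964, shared the values 8.54, 8.19 and 8.29 in colonies, against 7.38, 7.43 and 6.96 in parent cells. Their difference of 1.08 fell under 2-fold without colony array 1, at 0.98, and without parent array 3, at 0.94. Probe sets 8176865 and 8177460, each with a flank on the Y chromosome, shared the values 8.87, 8.84 and 8.84 in colonies, against 7.78, 7.57 and 7.42 in parent cells, the largest difference of the family at 1.26.

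The remaining 4 of the family, 7924549, 8049963, 7927095 and 8097064, list LINC00266-1 and PCMTD2 and differed by 1.18, 1.18, 1.11 and 1.03, where the first pair shared all values and the last pair moved under 2-fold without parent array 3. Of these 14, 10 had flanking probe sets on 1 chromosome, and those were of 9 different chromosomes, so the probe sets are spread over the genome. PCMTD2 lay between the flanks of none of these 10, and SEPTIN14 only for 8137666, while LINC00266-1 was not placed. The flanks of 8137666 are DYNC2I1 and PDGFA. A stretch between flanks can hold many genes, so this does not place 8137666 at SEPTIN14. The values are thus not shown to come from the PCMTD2 gene. Another 3 probe sets that list PCMTD2 stayed under 2-fold, between 0.76 and 0.96. A probe set for PCMTD2 alone averaged 9.81 in colonies and 9.20 in parent cells and rose by 0.61 (limma adjusted p = 0.00036). One for SEPTIN14 alone averaged 5.29 in both groups (limma adjusted p = 1.0). Near PCMTD2, TCEA2, a transcription elongation factor, rose by 1.19 (limma adjusted p = 1e-05) and OPRL1, the nociceptin receptor, rose by 0.52 (limma adjusted p = 0.012), among 8 single-symbol probe sets within 10 genes.

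Smaller copy families followed. CKMT1A and CKMT1B, neighbouring copies of the mitochondrial creatine kinase gene, are listed by 7983239 and 7983256, which shared the values 7.45, 7.52 and 7.63 in colonies, against 9.07, 8.96 and 8.98 in parent cells. The difference was -1.47, or 2.77-fold lower in colonies. Of 11 single-symbol probe sets near them, 1 rose and 3 fell. MAP1A, a microtubule protein of neurons, fell by 0.73, LCMT2, a tRNA-modifying enzyme, fell by 1.05, TP53BP1, a DNA repair protein, fell by 0.53, and TUBGCP4, of the gamma-tubulin ring complex, rose by 0.28. CKMT2, the muscle type, differed by -0.06 and did not pass.

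TCAF2, a partner of the cold-sensing channel TRPM8, is listed with TCAF2P1 by 8136940 and 8136954. Probe set 8136940 read 6.64, 6.57 and 6.57 in colonies, against 8.85, 8.86 and 8.92 in parent cells. The differences were -2.28 and -2.23, with an SD of 0.04 in each group. Its relative TCAF1 had 3 probe sets of its own, of which 2 fell, by 0.29 and 0.24, and 1, at -0.11, did not pass.

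MEIS3, a homeobox gene, is listed with its pseudogene MEIS3P1 by 8005132 and 8005695. Probe set 8005132 read 8.46, 8.58 and 8.56 in colonies, against 7.32, 7.30 and 7.16 in parent cells, and the differences were 1.27 and 1.04. The probe set for MEIS3 alone averaged 7.12 in colonies and 6.92 in parent cells and, at 0.20, did not pass (limma adjusted p = 0.14). It passed once parent array 1 was left out. MEIS2, of the same family, fell by 0.82 (limma adjusted p = 7.6e-05).

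SNORA59A and SNORA59B, H/ACA box RNAs that guide pseudouridylation, share probe sets 7897953 on chromosome 1 and 8005626 on chromosome 17. Both read 7.72, 7.70 and 7.66 in colonies, against 6.66, 6.51 and 6.44 in parent cells, a difference of 1.16. ASAH2 and ASAH2B, for the neutral ceramidase and a shorter copy, are listed by 7927599. It read 6.73, 6.79 and 6.77 in colonies, against 8.83, 8.52 and 8.66 in parent cells, or -1.91. The other 2 probe sets with the same symbols differed by -0.39 and -0.16, at parent means of 5.72 and 5.41, whereas ASAH1, for the acid ceramidase of lysosomes, rose by 1.14 (limma adjusted p = 0.00017).

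In a further group, the listed genes lie far apart and share no name stem, and a single listed gene of each probe set lies between its flanks. The probe set is then said to lie at that gene. The place was taken from the ID order. For 97.8% of 18894 single-symbol probe sets, their own gene lay between the flanks or next to them. Such a stretch can hold several genes, so the place is not exact. Probe set 8115543 lists EBF1, a transcription factor of B cells and fat cells, and PDGFRB, a growth factor receptor. It read 7.23, 7.04 and 6.99 in colonies, against 9.66, 9.59 and 9.69 in parent cells. The difference was -2.56, or 5.91-fold lower in colonies, and the flanks bracket EBF1. The probe set for PDGFRB alone averaged 5.77 in colonies and 5.79 in parent cells and did not pass (limma adjusted p = 0.94).

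Probe set 7945680 lists H19, an imprinted noncoding RNA, and RPS12, a ribosomal protein, and lies at H19. It read 8.02, 7.92 and 8.17 in colonies, against 9.88, 9.89 and 9.89 in parent cells, or -1.85. A second probe set with RPS12, listed there with SNORA33, differed by 0.11 with overlapping groups. Probe set 7956867 lists HMGA2, a chromatin protein of embryonic cells, and ELAC2, a tRNA-processing enzyme, and lies at HMGA2. It read 7.42, 7.42 and 7.42 in colonies, against 8.89, 8.82 and 8.85 in parent cells, or -1.43. Its 3 colony values were identical, as they were in 2 more of the set (7949060 and 8171435). ELAC2 alone fell by 0.48 (limma adjusted p = 0.00052).

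Probe set 7949060 lists PPP1R14B, an inhibitor of protein phosphatase 1, and LIMK2, a kinase of the actin regulator cofilin, and lies at PPP1R14B. It read 9.37, 9.37 and 9.37 in colonies, against 10.63, 10.51 and 10.51 in parent cells, or -1.18. LIMK2 alone differed by -0.21 (limma adjusted p = 0.028), a call that was lost with the replicate number as a block and in 5 of the 6 fits that left out 1 array. Probe set 8051241 lists ALK, a receptor tyrosine kinase, and KIF5B, a kinesin motor, known as fusion partners in lung cancer. It read 7.0001, 6.84 and 6.96 in colonies, against 5.98, 5.90 and 5.69 in parent cells, or 1.07, and moved under 2-fold without parent array 3. KIF5B alone fell by 0.24 (limma adjusted p = 0.0066), and probe sets that list ALK with EML4 or PPFIBP1 differed by -0.13 and -0.30.

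Probe set 7969574 lists MIR622 and KRT18, the gene of a keratin of simple epithelia, and lies at MIR622 on chromosome 13. It read 9.47, 9.41 and 9.57 in colonies, against 10.89, 10.98 and 11.09 in parent cells. The difference was -1.50, and both probe sets for KRT18 alone passed as well, at -1.37 and -1.56 (limma adjusted p = 8e-06 and 6.1e-05). The mature microRNA is shown because the probe set lies at its gene. It lies at chr13:90231242-90231262 on the plus strand of GRCh38.p14, from RefSeq, and its seed (bases 2 to 8) is in capitals.
hsa-miR-622: aCAGUCUGcugagguuggagc
Whole-transcript arrays do not separate a microRNA precursor from a transcript of like sequence, so this value is not one of mature miR-622.

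Probe sets that list a gene with a locus known only by a LOC number were higher. Probe set 7986323, with LOC440311 and NOP53, a ribosome assembly factor, differed by 1.19, and NOP53 alone rose by 1.44 (limma adjusted p = 2.3e-05). Probe set 8156164, with LOC389765 and KIF27, a kinesin of cilia, read 7.64, 7.997 and 8.06 in colonies, against 6.63, 6.42 and 6.61 in parent cells, or 1.35. A second probe set with the same symbols differed by 0.81, and KIF27 alone rose by 0.52 (limma adjusted p = 0.0073). Probe set 8070632, with LOC102724560 and CBS, the enzyme that makes cystathionine, read 9.42, 9.42 and 9.40 in colonies, against 7.88, 8.08 and 8.04 in parent cells, or 1.41.

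Of the 23 single-symbol probe sets for a gene listed by the set, 3 rose, 15 fell and 5 did not pass (limma), and 8 of the 23 were SNORD116 copies. That is 78.3% called, against 39.2% of all single-symbol probe sets. These genes were taken from probe sets already chosen by the same contrast on the same arrays, and share sequence with them, so the share called is a description and not independent support. Outside SNORD116, the single-symbol probe sets for KRT18, MC1R, NOP53 and ZNF625-ZNF20 also differed by at least 2-fold in the direction of the multi-symbol ones. Those for TMSB4Y, TMSB4XP2, PDGFRB, SEPTIN14, PCMTD2, LIMK2, MEIS3, ELAC2 and KIF27 differed by less than 2-fold, as did KIF5B, in the opposite direction.

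**Figure D4:**
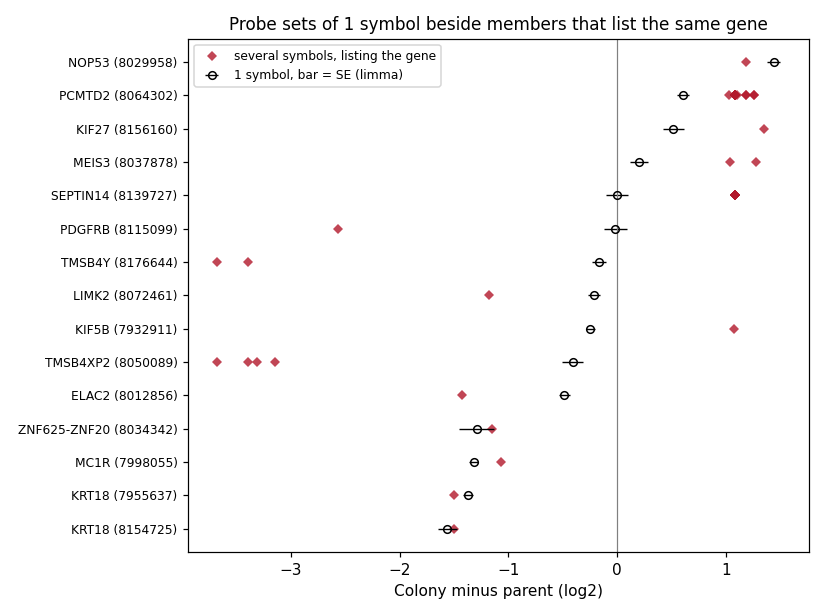
Colony minus parent difference (log2) of the 15 probe sets with 1 symbol whose gene is also listed by a multi-symbol probe set of at least 2-fold, SNORD116 copies left out. Open circles with bars are the single-symbol probe set and its SE from limma, and red diamonds are the multi-symbol ones with that gene. Circles and diamonds lie close for KRT18, MC1R and ZNF625-ZNF20 and far apart for TMSB4Y, TMSB4XP2 and PDGFRB.

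Readthrough symbols occurred in 10 of the set. Among those lower in colonies, 8093104 lists TM4SF19, a membrane protein with 4 spans, and TM4SF19-DYNLT2B. It read 9.32, 9.26 and 9.38 in colonies, against 11.36, 11.44 and 11.36 in parent cells, or -2.07. Probe set 8111430 lists AMACR, a racemase for branched-chain fatty acids, and C1QTNF3-AMACR. It read 8.87, 8.84 and 8.87 in colonies, against 10.73, 10.70 and 10.80 in parent cells, or -1.88. Probe set 7961252, with PRR4, a proline-rich protein of tears, and PRH1-PRR4, differed by -1.59, whereas the probe set for PRH1 and PRH1-PRR4 was higher by 0.40. Probe set 8034344, with ZNF625 and ZNF625-ZNF20, differed by -1.15 at a parent mean of 5.08, the single-symbol ZNF625-ZNF20 probe set fell by 1.29 (limma adjusted p = 0.0014), and the one for ZNF20 and ZNF625-ZNF20 was higher by 0.19.

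Probe set 7998063 lists 2 neighbours on chromosome 16, TUBB3, a beta-tubulin of neurons, and MC1R, the receptor for the pigment hormone of melanocytes. It read 9.93, 9.996 and 10.02 in colonies, against 11.06, 11.05 and 11.04 in parent cells, or -1.07, the second smallest of the lower ones. MC1R alone averaged 8.77 in colonies and 10.1 in parent cells and fell by 1.32 (limma adjusted p = 9e-06). No probe set lists TUBB3 alone, so its share of the value is not known.

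Among the loci that were higher in colonies, 8056102 lists CD302, a C-type lectin, and LY75-CD302. It read 11.37, 11.39 and 11.43 in colonies, against 9.77, 9.64 and 9.59 in parent cells, or 1.73, and 3.31-fold. The partner probe set, for LY75 and LY75-CD302, averaged 3.98 in colonies and 4.13 in parent cells, with overlapping groups. Probe set 8171435 lists PIR, an iron-binding nuclear protein, and PIR-FIGF, and differed by 1.07, whereas the one for VEGFD and PIR-FIGF differed by 0.10 with overlapping groups. Probe set 8146711 lists C8orf44 and C8orf44-SGK3 and differed by 1.04 at colony and parent means below the array medians. It moved under 2-fold without colony array 2 or without parent array 2. The one for SGK3, a kinase of the AKT branch, and C8orf44-SGK3 went the other way, at -0.86.

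Probe set 8010078 lists SNHG16 and the small nucleolar RNA SNORD1C that lies in it. It read 10.23, 10.29 and 9.40 in colonies, against 8.55, 8.43 and 8.51 in parent cells. The third colony array was lower than the other two, and the difference of 1.48 was 1.76 without it. SNORD1A and SNORD1B, hosted by the same gene, rose by 0.97 and 0.55 (limma adjusted p = 0.0095 and 0.014), and the SNORD1B call was lost without colony array 2 or without parent array 1 or 2.

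The other 4 loci list genes with their readthrough forms or neighbours. Probe set 8041940, with STON1, an adaptor of endocytosis, GTF2A1L, a germ cell form of a general transcription factor, and STON1-GTF2A1L, read 6.29, 6.29 and 6.29 in colonies, against 5.04, 5.25 and 4.70 in parent cells, or 1.29. Probe set 8129392, with MTCL3 and KIAA0408, differed by 1.24 at a parent mean of 5.36. Probe set 8118259, with MSH5, a meiotic recombination protein, and MSH5-SAPCD1, differed by 1.18, and 3 further probe sets with MSH5-SAPCD1 were higher by 0.51 to 0.57. Probe set 8123802 lists TXNDC5, a disulfide isomerase of the endoplasmic reticulum, BLOC1S5, a subunit of a complex for melanosome formation, BLOC1S5-TXNDC5 and EEF1E1-BLOC1S5. It read 10.60, 10.67 and 10.62 in colonies, against 9.56, 9.47 and 9.55 in parent cells, or 1.10.

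The small nucleolar RNA families outside chromosome 15 give a background for SNHG16 with SNORD1C and for SNORA59A with SNORA59B. Of 75 single-symbol SNORD probe sets outside the SNORD115 and SNORD116 clusters, 16 rose and 1 fell, with a median of 0.14, so that 22.7% were called. Of 64 single-symbol SNORA probe sets, 9 rose and 5 fell, with a median of 0.03 and 21.9% called. Both shares were below the 39.2% called among all single-symbol probe sets. Colony array 3 decided much of this. Without it, 36 of the SNORD and 14 of the SNORA probe sets rose, whereas without colony array 2 the SNORA count was 4. Over all 209 single-symbol probe sets for a listed gene or a gene with the same name stem, 29 rose and 37 fell, or 31.6% called, against 39.2% of all single-symbol ones, and without colony array 3 the number that rose was 54.

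At the threshold, the lowest of the higher probe sets were 8097064, at 1.03, and 8146711, at 1.04. Just outside were 8074606 (USP41P and USP18, an enzyme that removes ISG15), at 0.986, and 7930882 (DENND10 and DENND10P1), at 0.975. The smallest of the lower ones were 7981919, at -1.06, and 7998063, at -1.07, with the SNORD109 probe sets outside at -0.995. Leaving out 1 array changed which probe sets met the rule at these edges, with 23 to 36 higher and 37 to 42 lower, and no probe set of the 69 changed direction in any of the alternatives.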

How the data were processed

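RNA of 6 samples was measured, 3 IDTC colony and 3 parent, grouped by their titles. Each deposited number is the log2 expression of 1 probe set, made, per the submitters' processing notes, with Affymetrix Expression Console. Not given in the sources used here are its version, background correction, normalization and genome build. Arrays have no read depth, and their number limits the precision. Whether the triplicates were separate cultures is not stated, so a p-value covers the spread of these samples alone, and that spread may be technical. No batch is labelled.

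Symbols came from the platform annotation, which gave 1 symbol for 19460 of 33297 probe sets, several for 1754 and none for 12083. For the 69 described, 106 of the 108 listed symbols were placed in the RefSeq gene table (GRCh38.p14), used for gene order and names. A family is probe sets joined by a listed symbol, with SNORD116 copies joined. Copies share a stem of at least 3 letters, and a locus means listed genes at most 10 positions apart in the gene order. Proteins were not compared. Each probe set was placed by the nearest single-symbol probe sets in ID order, so its place is a stretch between flanks that can hold several genes. Promoters and miR-622 are RefSeq sequences, found for 62 of the 108 symbols, and identity was taken from a global alignment.

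Differences are colony minus parent. Single-symbol probe sets were tested with limma (lmFit and eBayes, 2-sided, group only) over all 33297 probe sets, with Benjamini-Hochberg adjustment, after a run on simulated data. The members and lists were chosen with earlier results of these data known. The rule for names took every family of 2 or more, the 10 largest differences each way, the 2 probe sets on each side of each threshold, and the single-symbol probe sets of listed genes. All other members were then named so that each is accounted for. Other relatives, neighbours and small nucleolar RNA counts were chosen after values were seen. Same-numbered colony and parent arrays correlated at 0.052, -0.057 and 0.056 in their deviations from the group means. Arrays of unlike number correlated at -0.077 to 0.041. With 3 arrays per group this cannot settle whether numbers pair samples, and the main fit took them as unpaired. Alternatives were a median shift, quantile normalization, only probe sets above the median expression, eBayes with trend and robust settings, a replicate block, and each array left out. R 4.3.3, limma 3.58.1, Python 3.11.15, pandas 2.3.3, numpy 2.4.6, Biopython 1.88 and matplotlib 3.10.9 were used.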

Additional observations from a re-analysis of the deposited data

How the results depend on the processing

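Of 650 values of the 69 probe sets and of those just outside the thresholds under the alternatives, 642 stayed within 1 SD of the main value, 8 moved further and none changed sign. Leaving out an array moved a difference by at most about 0.28. The number of members was 71 after a median shift, 72 after quantile normalization and 64 above the median expression, and with 1 array left out 23 to 36 were higher and 37 to 42 lower. The share of all multi-symbol probe sets past 2-fold was 4.16%, and 6.25% among those above the median expression, an alternative chosen after seeing the data. Of 209 related single-symbol probe sets, 29 rose and 37 fell, with 22 to 54 and 33 to 36 when 1 array was left out, the 54 being without colony array 3. The cause was not tested. The replicate block, where samples are known to share only a number, gave 28 and 36 for these. Over all probe sets it gave 4332 and 4526, against 4805 and 5095 without it. With 1 array left out, the counts over all were 3921 to 4845 higher and 4299 to 5196 lower. Differences near 0 that had not passed changed sign. SEPTIN14 gave -0.0247 after the median shift and -0.0127 after quantile normalization, and with 1 array left out it lay between -0.0785 and 0.0988. Likewise with 1 array left out, PDGFRB lay between -0.0854 and 0.0659 and the TCAF1 probe set 8143597 between -0.233 and 0.0259. Values below the array medians limit what can be seen of a lower level.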
